A study of Homo sapiens with 18 samples.

Results

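The cancer-testis antigen families MAGE-A, MAGE-B, MAGE-C, GAGE, PAGE, XAGE, SPANX, SSX, CT45 and CTAG hold 84 rows of the count table by their gene names, among 62710 genes in all. Of these 84 rows, 14 had a mean of 0.5 CPM or more (the usual library-size unit, here on TMM-scaled library totals) in at least 1 of 6 groups, and they are described here: MAGEA3, MAGEA6, MAGEA11, MAGEA12, MAGEC1, MAGEC2, PAGE5, SSX1, SPANXA1, SPANXA2, SPANXB1, SPANXD, XAGE1A and XAGE1B. The members were thus chosen by their measured group means, so their presence above the threshold is not a finding. The lowest member, SPANXD, had a highest group mean of 1.38 CPM, and the rows closest under the threshold were MAGEB2 at 0.424 CPM and CTAG2 at 0.369 CPM. Another 32 rows had some reads below it, and 38 had no read in any library.

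The study sequenced polyA RNA in bulk from spheroids grown from the cell line MDA-MB-231, which derives from a triple-negative breast carcinoma and has a mesenchymal character. The 18 libraries form 6 groups of 3. Control spheroids, labelled wildtype, and spheroids labelled MMP14-KO, called targeted here, were each sampled from hanging droplets after 5 days of formation, and after 24 h or 48 h in a collagen hydrogel. MMP14 is a membrane-anchored matrix metalloproteinase that cleaves collagen. All groups share the cell line and the droplet stage, with 2000 cells per spheroid and 100000 cells per sample. Spheroids in collagen were released with collagenase before RNA isolation and those from droplets were not, so collagen and release cannot be told apart. The sources used here do not state how MMP14 was targeted, whether the targeted cells are 1 clone or a pool, or whether replicates are separate cultures. The p-values therefore measure the spread between these libraries, which may be technical, and the genotype difference and a difference between cell populations cannot be told apart.

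Cancer-testis antigens are proteins made mainly by germ cells of the testis and kept silent in most other adult tissues. Many are encoded by multigene families on the X chromosome, where recent duplications left copies that are close to identical. Methylation of CpG sites in their promoters is a known part of their silencing, and loss of that methylation in tumours is a known route to their return. MAGE proteins bind RING-type ubiquitin ligases through a shared MAGE homology domain. SPANX proteins belong to the nuclear envelope of spermatids, SSX proteins are transcriptional corepressors, and the PAGE and XAGE proteins are small antigens of the wider GAGE superfamily.

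Total counts per library ran from 19819401 to 33352163, so 0.5 CPM stands for 9.91 to 16.7 reads. MMP14 read 1284 to 2250 CPM in the control libraries and 137.9 to 165.6 CPM in the targeted ones, a difference of -3.53 on the log2 scale (SE 0.0518, adjusted p = 2.48e-21, edgeR's quasi-likelihood test with Benjamini-Hochberg adjustment). MMP14 RNA was thus lower in every library labelled MMP14-KO, but not absent. All 8 listed markers of the line, such as VIM, CD44 and AXL, were above 0.5 CPM in every group, with 2 higher and 2 lower in targeted spheroids. Of 10 epithelial and receptor genes listed as low in this line, ESR1, PGR and FOXA1 were below 0.5 CPM in every group, and 1 was higher and 4 lower. Over all genes tested, 21.1% were higher and 23.1% lower on the average over conditions. KRT8 and KRT18 of the epithelial and receptor list were not low, with highest group means of 523.7 and 353.7 CPM. ERBB2, CDH1, EPCAM, GATA3 and CLDN4 of that list also had enough reads to be tested, and their levels are not given here. The list was thus low only in part. Of 14 spermatogonial and Sertoli genes 11 were below 0.5 CPM in every group while SOX9, which is not restricted to the testis, was at group means of 112.2 to 169.5 CPM, and NANOS2, UTF1, PRM1, PRM2 and TNP1 had no read.

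The promoters of 5 members or member pairs are printed because they stand for large, small and absent genotype calls among members that were at 0.5 CPM or more in all groups. Each line gives the 250 bases before a RefSeq transcription start on GRCh38.p14, 5′ to 3′ on the gene's strand, with every CpG dinucleotide in capitals. The window is chrX:152698544-152698793 (plus strand) for MAGEA3, and the MAGEA6 window at chrX:152769690-152769939 (minus strand) holds the same 250 letters. The others are chrX:55220096-55220345 (plus) for PAGE5, chrX:48255142-48255391 (plus) for SSX1, chrX:141002344-141002593 (plus) for SPANXB1 and chrX:52517013-52517262 (minus), at 1 of the RefSeq starts of XAGE1B.
MAGEA3 and MAGEA6: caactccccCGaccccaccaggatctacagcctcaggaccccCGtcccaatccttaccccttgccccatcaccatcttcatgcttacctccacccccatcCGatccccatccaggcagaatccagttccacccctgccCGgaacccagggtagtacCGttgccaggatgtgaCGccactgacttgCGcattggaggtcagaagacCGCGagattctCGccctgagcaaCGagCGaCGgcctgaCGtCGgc
PAGE5: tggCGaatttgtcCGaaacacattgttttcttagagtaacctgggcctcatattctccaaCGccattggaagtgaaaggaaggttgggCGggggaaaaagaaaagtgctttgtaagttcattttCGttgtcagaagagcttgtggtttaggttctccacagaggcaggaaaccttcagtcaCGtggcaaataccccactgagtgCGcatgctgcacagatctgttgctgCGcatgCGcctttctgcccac
SSX1: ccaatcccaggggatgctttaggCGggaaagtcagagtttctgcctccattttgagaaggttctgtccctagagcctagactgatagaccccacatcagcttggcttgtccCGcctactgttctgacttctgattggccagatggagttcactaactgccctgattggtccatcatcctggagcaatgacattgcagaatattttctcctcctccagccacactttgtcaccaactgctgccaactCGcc
SPANXB1: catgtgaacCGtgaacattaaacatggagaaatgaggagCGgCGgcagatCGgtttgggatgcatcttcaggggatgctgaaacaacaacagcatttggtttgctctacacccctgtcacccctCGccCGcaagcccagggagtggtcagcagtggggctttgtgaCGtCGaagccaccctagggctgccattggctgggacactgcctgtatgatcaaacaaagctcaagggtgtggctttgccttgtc
XAGE1B: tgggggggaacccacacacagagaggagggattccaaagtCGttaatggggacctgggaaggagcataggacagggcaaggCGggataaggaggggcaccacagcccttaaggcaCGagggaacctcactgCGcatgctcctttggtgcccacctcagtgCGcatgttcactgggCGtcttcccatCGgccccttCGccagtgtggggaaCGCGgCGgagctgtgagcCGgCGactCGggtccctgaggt

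The windows held 15 CpG sites for MAGEA3 and MAGEA6, 9 for PAGE5, 3 for SSX1, 8 for SPANXB1 and 14 for XAGE1B, while the median over 35116 promoters of the RefSeq table was 11. Across the 14 members the number of sites ran from 3 in SSX1 to 18 in MAGEA11. It depends on the start used: the windows of the other XAGE1B starts held 8, and those of MAGEA12 held 5 or 13. A set of 3 short motifs was searched on both strands in windows of this length. CCGGAA, 1 form of ETS factor sites, was found in 14.5% of all promoters and in 2 members, MAGEA3 and MAGEA6. The related CCGGAT, present in the MAGEA11, MAGEA12, MAGEC1 and MAGEC2 windows, was not among the 3 motifs searched. CACGTG, the E-box bound by MYC and MAX, was found in 6.34% of all promoters and in 1 member, PAGE5. GGCGGGA, bound by E2F6, a repressor of germ-line genes, was found in 13.5% of all promoters and in 3 members, XAGE1A, XAGE1B and SSX1. A match is a description of these letters only. The SPANXA1 and SPANXA2 windows were also identical to each other. Each matched the SPANXB1 window in 71.7% of alignment columns, with columns that hold a gap counted as mismatches. The SPANXB1 window starts further upstream in the shared sequence, so this share is not a measure of divergence.

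Levels per kilobase of exon spread over a wide range. The length is the union of all annotated exons, 1414 bases for XAGE1B and 1071 for XAGE1A, whose longest transcripts have 733 bases. For SPANXB1 both lengths are 469 bases. The places of XAGE1A and XAGE1B below thus depend on the length used and on how reads were split between these near-identical copies. In control libraries, SPANXB1 (mean 86.3 CPM per kb) and XAGE1B (75.0 CPM per kb) stood highest and their ranges overlapped, from 67.4 to 111.7 and from 61.7 to 90.1. XAGE1A followed at 34.2 CPM per kb and PAGE5 at 6.20 CPM per kb, and the other 10 members were at or below 2.49 CPM per kb, down to 0.0433 for MAGEA12. Targeted libraries had another order. On these lengths SPANXB1 stood highest with 174.6 CPM per kb, and XAGE1B followed at 68.6 CPM per kb. PAGE5 (35.0 CPM per kb) and XAGE1A (30.8 CPM per kb) had overlapping ranges of 27.3 to 42.8 and 16.9 to 38.2. MAGEC2, SSX1 and MAGEC1, at 4.66, 4.30 and 4.29 CPM per kb, overlapped one another there.

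Of the 14 members, 11 were higher in all 9 targeted libraries than in any of the 9 control libraries. Over all 17030 genes tested this share was 1.63%. The exceptions were SPANXA1, XAGE1A and XAGE1B. By the test, 11 members were higher and none lower in droplets, where 7.7% of all genes were higher and 9.7% lower. At 24 h in collagen 11 were higher and 1 lower (13.7% and 15.7% of all genes), and at 48 h 10 were higher and none lower (14.4% and 15.1%). Averaged over the 3 conditions, 12 were higher and 1 lower (21.1% and 23.1%). These genotype comparisons share their libraries with the collagen comparisons given further on. The median log2 difference of the members was 2.08, 1.96 and 1.87 in droplets, at 24 h and at 48 h, and that of all genes lay between -0.00 and 0.00. MAGEA12 and SPANXD were below 0.5 CPM in every control group and SPANXA2 in control droplets, so these entered through their targeted level and had to differ. Among members at 0.5 CPM or more on both sides, 8 of 11 were higher in droplets, 9 of 12 at 24 h and 8 of 12 at 48 h. The members were proposed with results of these data known, so the counts describe the set and are no independent support. In bulk RNA, fewer expressing cells and less RNA per cell cannot be told apart.

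**Figure D1:**
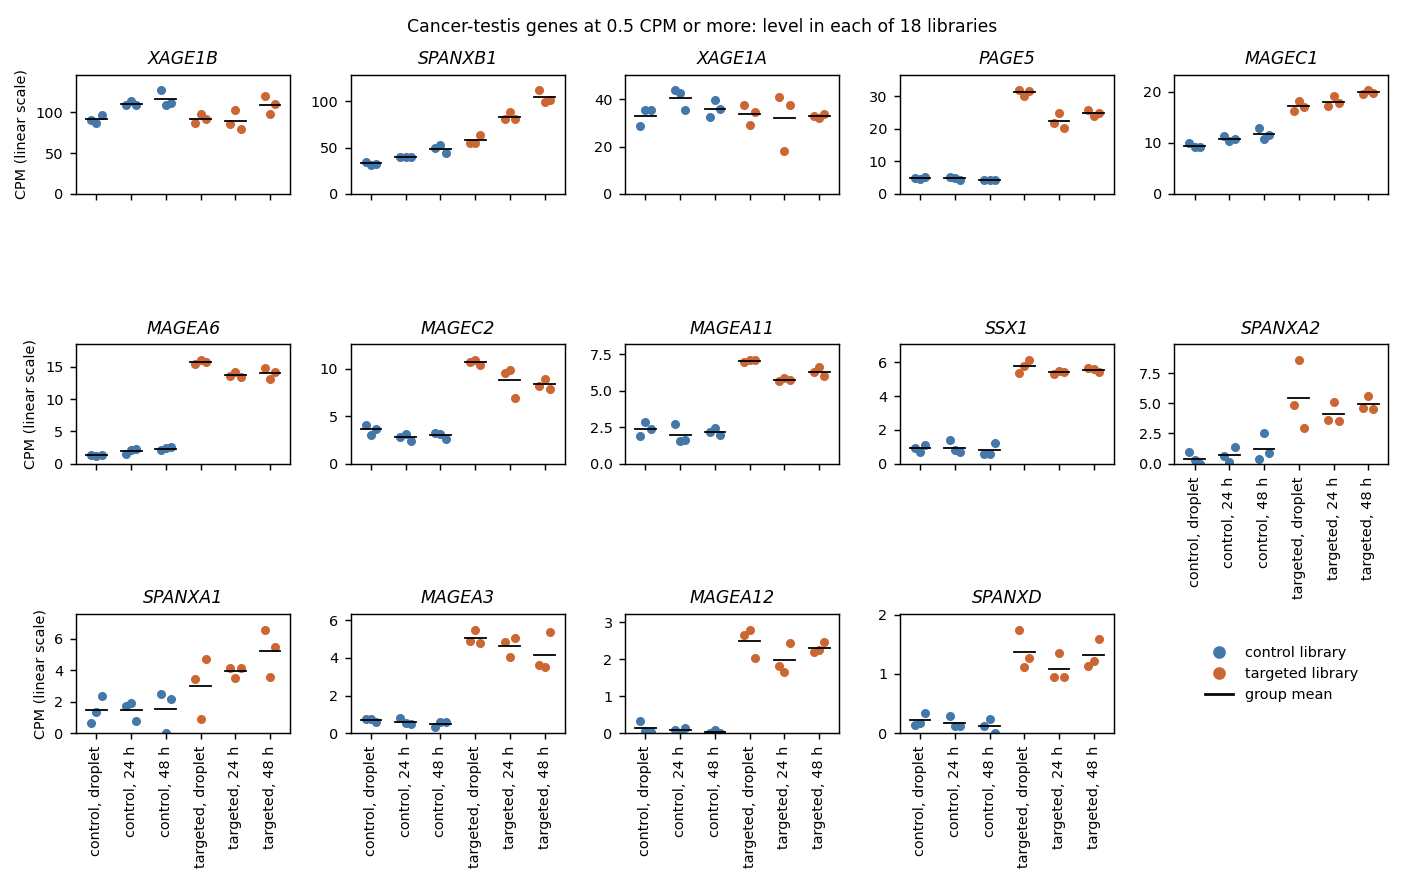
Level of each of the 14 members in CPM (vertical axis, linear, starting at 0, scaled per gene) in the 18 libraries, by group (horizontal axis); points are libraries, blue control and orange targeted, and bars are group means over 3 libraries. In 11 panels every targeted point lies above every control point, and SPANXA1, XAGE1A and XAGE1B are the exceptions.

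MAGEA3 and MAGEA6, which assemble with the ubiquitin ligase TRIM28, showed the largest differences averaged over conditions among members at 0.5 CPM or more in all groups. MAGEA6 (ENSG00000197172, X:152766136-152769747, GRCh38, minus strand) read 1.36, 1.21 and 1.35 CPM in the 3 control droplet libraries, 1.54, 2.11 and 2.21 CPM at 24 h, and 2.11, 2.38 and 2.5 CPM at 48 h. Targeted libraries read 15.4, 16.1 and 15.8 CPM in droplets, 13.6, 14.2 and 13.4 CPM at 24 h, and 14.9, 13.1 and 14.2 CPM at 48 h. Every targeted value was thus above 13 CPM and every control value below 2.6 CPM. The level was 12.1-fold higher in targeted droplets, 6.94-fold at 24 h and 6.04-fold at 48 h. On the log2 scale these were 3.59 (SE 0.124), 2.80 (SE 0.116) and 2.60 (SE 0.116), with adjusted p of 1.94e-15, 9.68e-14 and 3.61e-13 (edgeR's quasi-likelihood test, Benjamini-Hochberg).

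MAGEA3 (ENSG00000221867, X:152698752-152702347, plus strand) was the lower of the pair in every library. Control libraries read 0.748, 0.749 and 0.602 CPM in droplets, 0.793, 0.547 and 0.491 CPM at 24 h, and 0.313, 0.585 and 0.604 CPM at 48 h. Targeted libraries read 4.92, 5.5 and 4.81 CPM, then 4.87, 4.04 and 5.04 CPM, then 3.63, 3.52 and 5.35 CPM. The groups did not overlap in any condition. The fold was 7.23 in droplets, 7.67 at 24 h and 8.29 at 48 h, with log2 values of 2.85 (SE 0.228), 2.94 (SE 0.233) and 3.05 (SE 0.248) and adjusted p of at most 1.27e-08 by the same test.

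MAGEA12 (ENSG00000213401, X:152733779-152737669), a further MAGE-A gene that lies between MAGEA3 and MAGEA6, was close to absent in control libraries, with 19 reads in all 9 together and none in 3 of them. Its targeted level was 2.66, 2.80 and 2.05 CPM in droplets, 1.82, 1.65 and 2.44 CPM at 24 h, and 2.19, 2.25 and 2.48 CPM at 48 h, or 503 reads in all. The highest control library, in droplets, held 0.327 CPM. The annotated CSAG4 overlaps it on the same strand. MAGEA11 (ENSG00000185247, X:149688228-149717266), another MAGE-A gene, read 1.52 to 2.85 CPM over the control libraries and 5.64 to 7.10 CPM over the targeted ones, with no overlap. Its group means were 2.36 ± 0.493, 1.95 ± 0.658 and 2.19 ± 0.262 CPM (SD, n = 3) in control droplets, at 24 h and at 48 h, and 7.04 ± 0.0874, 5.74 ± 0.105 and 6.29 ± 0.315 CPM in targeted spheroids. It was 2.94-fold, 2.97-fold and 2.87-fold higher in targeted droplets, at 24 h and at 48 h, or 1.56 (SE 0.169), 1.57 (SE 0.176) and 1.52 (SE 0.175) on the log2 scale. The adjusted p was at most 1.84e-06.

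The MAGE-C genes were present in control cells and stood higher in targeted cells. MAGEC2 (ENSG00000046774, X:142202345-142205290), another TRIM28 partner, read 4.11, 3.07 and 3.65 CPM in control droplets, 2.80, 3.17 and 2.36 CPM at 24 h, and 3.25, 3.09 and 2.59 CPM at 48 h. Targeted libraries read 10.7, 11 and 10.4 CPM, then 9.55, 9.85 and 6.98 CPM, then 8.24, 8.97 and 7.88 CPM. The genotypes did not overlap, with folds of 2.98, 3.19 and 2.80 and log2 values of 1.57 (SE 0.142), 1.67 (SE 0.148) and 1.49 (SE 0.150). The adjusted p was at most 3.04e-07. MAGEC1 (ENSG00000155495, X:141903894-141909388), which carries a long repeat region beside its MAGE domain, changed less. It ran from 9.13 to 13 CPM over the control libraries and from 16.2 to 20.3 CPM over the targeted ones, again with no overlap. Its group means rose from 9.39 ± 0.407 CPM in droplets to 11.7 CPM (range 10.7 to 13, n = 3) at 48 h in control spheroids and from 17.1 ± 0.999 to 19.8 ± 0.389 CPM in targeted ones. Its log2 differences were 0.87 (SE 0.0838), 0.75 (SE 0.0825) and 0.76 (SE 0.0826), and the adjusted p was at most 1.06e-06.

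PAGE5 (ENSG00000158639, X:55220355-55224108), a small antigen of the PAGE family, rested on the most reads among the strongly changed members, with 1062 in control and 5859 in targeted libraries. Control values were 4.72, 4.64 and 5.04 CPM in droplets, 5.01, 4.77 and 4.30 CPM at 24 h, and 4.35, 4.34 and 4.32 CPM at 48 h. Targeted values were 31.8, 30.0 and 31.4 CPM, then 21.7, 24.8 and 20.3 CPM, then 25.7, 23.8 and 24.8 CPM. The genotypes were far apart in every condition. The fold was 6.47, 4.76 and 5.72, or 2.69 (SE 0.0885), 2.25 (SE 0.0895) and 2.52 (SE 0.0918) on the log2 scale, with adjusted p of at most 4.73e-14.

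SSX1 (ENSG00000126752, X:48255317-48267444), a corepressor known as the fusion partner of SS18 in synovial sarcoma, was the single SSX gene above the threshold. Control libraries read 0.935, 0.714 and 1.09 CPM in droplets, 1.38, 0.782 and 0.675 CPM at 24 h, and 0.587, 0.543 and 1.21 CPM at 48 h. Targeted libraries lay close together at 5.39, 5.78 and 6.15 CPM, then 5.32, 5.5 and 5.41 CPM, then 5.66, 5.59 and 5.40 CPM. No control library reached 1.4 CPM and no targeted library fell below 5.3 CPM. The log2 differences were 2.66 (SE 0.232), 2.54 (SE 0.231) and 2.84 (SE 0.242), or 6.32-fold, 5.83-fold and 7.14-fold, with adjusted p of at most 6.60e-08.

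**Figure D2:**
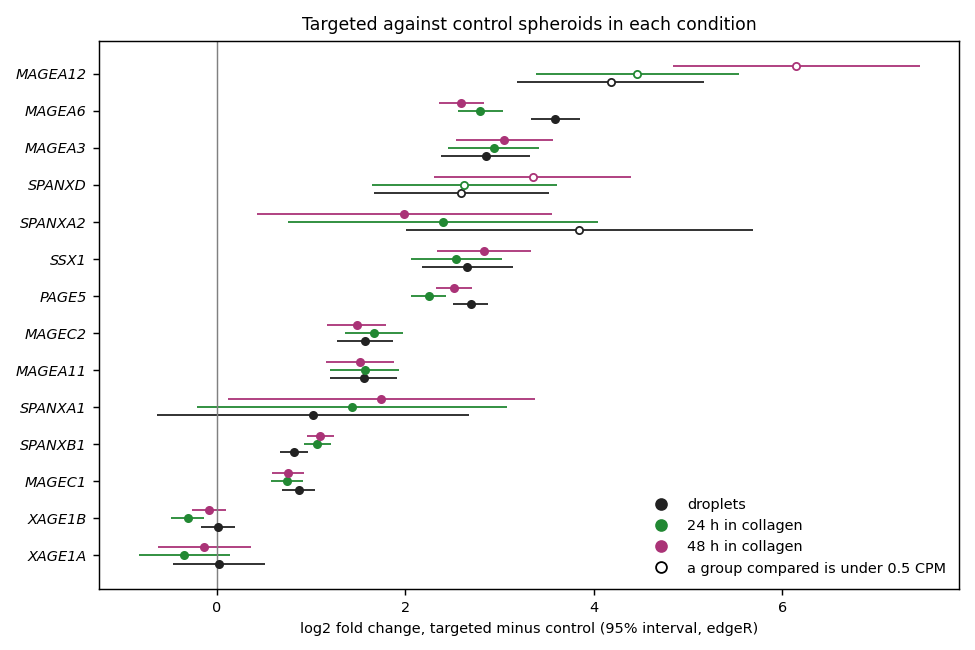
Log2 fold change of targeted against control (horizontal axis) for each of the 14 members (vertical axis) in droplets, at 24 h and at 48 h, with 95% intervals from edgeR; hollow points have a group below 0.5 CPM. The intervals of MAGEA6, MAGEA3, SSX1, PAGE5, MAGEC2, MAGEA11, SPANXB1 and MAGEC1 lie to the right of 0 in all 3 conditions, and those of XAGE1A span 0.

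SPANXB1 (ENSG00000227234, X:141002591-141003706), a spermatid nuclear protein gene, had the highest mean per kilobase of union exon among members read singly. It shared no 151-base stretch with another gene. Control libraries read 34.7, 31.6 and 32.4 CPM in droplets, 39.8, 40.3 and 39.5 CPM at 24 h, and 49.3, 52.4 and 44.3 CPM at 48 h. Targeted libraries read 55.4, 55.1 and 63.3 CPM, then 80.7, 88.3 and 81.2 CPM, then 112, 99.4 and 101 CPM. Within each condition the targeted libraries were all higher. The fold was 1.76 in droplets, 2.09 at 24 h and 2.14 at 48 h, with log2 values of 0.82 (SE 0.0703), 1.07 (SE 0.0689) and 1.10 (SE 0.0683) and adjusted p of at most 2.58e-08. SPANXD (ENSG00000196406, X:141697411-141698739) stayed at 0 to 0.339 CPM in control libraries and read 0.95 to 1.74 CPM in targeted ones, which is a description because the control groups were below the threshold.

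XAGE1B (ENSG00000204382, X:52512077-52520803) and XAGE1A (ENSG00000204379, X:52495676-52500812), copies of an antigen gene known from lung adenocarcinoma, were the exception. XAGE1B read 91.1, 87.2 and 96.4 CPM in control droplets and 86.8, 98.4 and 91.9 CPM in targeted ones, with full overlap. At 24 h it read 109, 114 and 109 CPM in control and 85.6, 102 and 79.5 CPM in targeted libraries, without overlap. At 48 h it read 127, 109 and 111 CPM and 120, 98.4 and 110.0 CPM. The log2 difference was 0.01 (95% interval -0.17 to 0.19), -0.31 (-0.49 to -0.13) and -0.08 (-0.26 to 0.10), and the 24 h value passed (adjusted p = 0.0106), although not without the third targeted 24 h library (adjusted p = 0.0603). The average over conditions was -0.13 (adjusted p = 0.0455), and it failed when any 1 of 12 of the 18 libraries was left out (adjusted p of 0.0557 to 0.101), namely the first and the third droplet libraries of each genotype, the first and the third targeted 24 h libraries, all 3 control 24 h libraries, the first control 48 h library and the second and the third targeted 48 h libraries. XAGE1A had group means between 32.1 ± 12.3 CPM (targeted, 24 h) and 40.7 ± 4.54 CPM (control, 24 h, SD, n = 3) and did not pass in any condition, with -0.15 on average (95% interval -0.43 to 0.13, adjusted p = 0.383). Without the filter on low counts XAGE1A passed at 24 h (-0.34, adjusted p = 1.18e-04) and on average (-0.15, adjusted p = 0.00326).

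Several members have near-identical copies, which limits what a count for 1 copy means. Over all 151-base windows of the longest GENCODE transcript (the read length), SPANXA1 and SPANXA2 shared 100% with other genes, chiefly each other, and so did XAGE1A and XAGE1B. MAGEA3 and MAGEA6 shared 27.7% of their windows, and SPANXD shared 12.4%. The other 7 members, MAGEA11, MAGEA12, MAGEC1, MAGEC2, PAGE5, SPANXB1 and SSX1, shared none. Coding sequences were 100% identical for SPANXA1 and SPANXA2 and for XAGE1A and XAGE1B, 98.1% for MAGEA3 and MAGEA6, and 96.9% for SPANXA1 and SPANXD. MAGEA12 was 92.2% identical to MAGEA3.

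The split between SPANXA1 (ENSG00000198021, X:141583674-141585011) and SPANXA2 (ENSG00000203926, X:141589435-141590772) varied from library to library. SPANXA1 held 41.2%, 82.6% and 100% of their joint reads in the 3 control droplet libraries, and 41.4%, 9.56% and 61.6% in the targeted ones. At 48 h it held 87.5%, 0% and 71.4% in control libraries. Read alone, SPANXA1 passed in no single condition (adjusted p = 0.427, 0.18 and 0.10), while SPANXA2 passed at 24 h (2.40, SE 0.759, adjusted p = 0.0309) and lost this when any 1 of 5 of the 6 libraries at 24 h, all but the third control one, was left out (adjusted p of 0.0501 to 0.0969). SPANXA2 read 0.935, 0.285 and 0 CPM in control droplets and 4.88, 8.61 and 2.94 CPM in targeted ones. SPANXA1 group means went from 1.46 ± 0.863 (droplets) to 1.54 ± 1.34 CPM (48 h, SD, n = 3) for control spheroids and from 3.02 ± 1.94 to 5.19 ± 1.51 CPM for targeted ones. The sum of both genes spread less, from 1.59 to 3.02 CPM over control and from 7.64 to 11.2 CPM over targeted libraries. SPANXA2-OT1 overlaps both genes, on the opposite strand of SPANXA1 and on the same strand as SPANXA2, and whether the counting used strand is not given in the sources used here.

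When the counts of copies at least 95% identical were summed before the fit, SPANXA1, SPANXA2, SPANXC and SPANXD together were higher by 2.21 (SE 0.142), 1.92 (SE 0.140) and 1.96 (SE 0.137) on the log2 scale in the 3 conditions, with adjusted p of at most 1.80e-09. MAGEA3 and MAGEA6 together rose from a mean of 2.47 CPM (1.96 to 3.11) in control to 19.2 CPM (16.6 to 21.6) in targeted libraries. Their summed log2 differences were 3.38 (SE 0.106), 2.83 (SE 0.102) and 2.69 (SE 0.103). The XAGE1A and XAGE1B sum was 0.02 (SE 0.0575, adjusted p = 0.889) in droplets, -0.32 (SE 0.0575, adjusted p = 2.83e-04) at 24 h and -0.09 (SE 0.0574, adjusted p = 0.234) at 48 h, and -0.13 (SE 0.0332, adjusted p = 0.0026) averaged over conditions. MAGEA2 and MAGEA2B, which share 97.8% and 100% of their windows, lie between MAGEA3 and MAGEA6 but stayed below the threshold. Their joint mean level was 0.322 CPM over control libraries and 0.35 CPM over targeted ones (75 and 80 reads), and in every library 1 of the copies held all the reads.

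**Figure D3:**
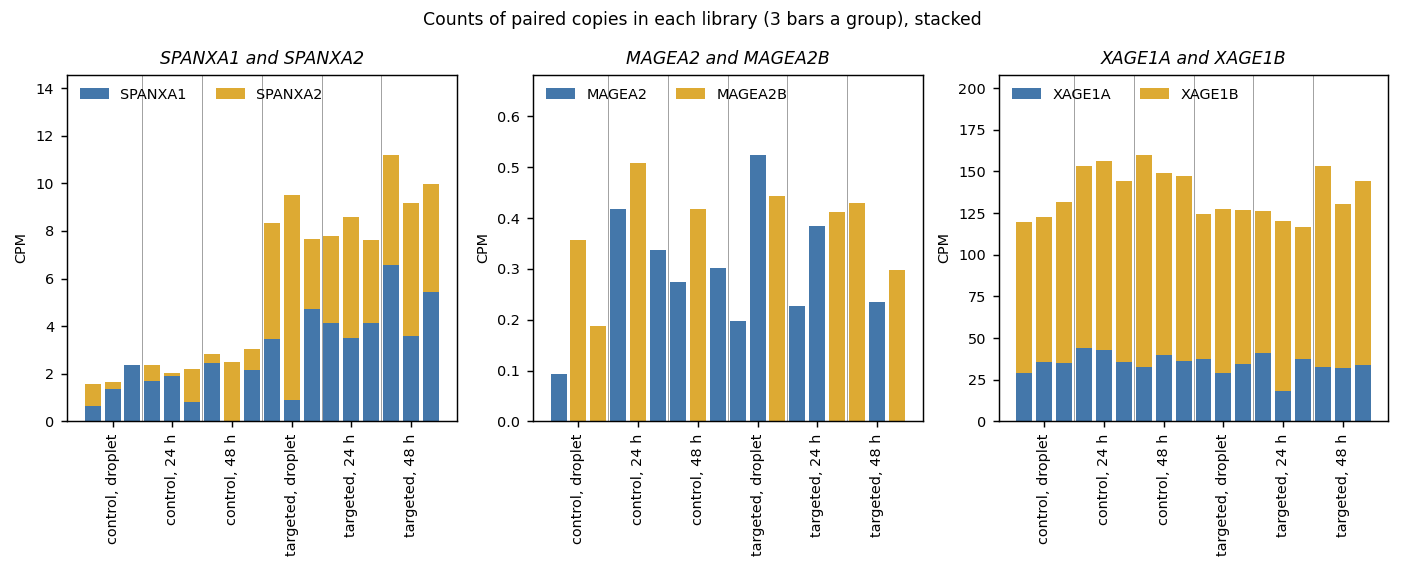
Stacked level in CPM (vertical axis, starting at 0) of the copies in 3 pairs for each of the 18 libraries (horizontal axis, 3 bars a group): SPANXA1 with SPANXA2, MAGEA2 with MAGEA2B, and XAGE1A with XAGE1B. The SPANXA sums separate control (1.59 to 3.02 CPM) from targeted libraries (7.64 to 11.2 CPM) while the colours trade places between bars, and each MAGEA2 bar has 1 colour.

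Few members were called as changed in collagen. In control spheroids 3 members rose and 1 fell at 24 h against droplets, where 27.8% of all genes rose and 28.7% fell, and 4 rose and none fell at 48 h (27.7% and 27.5% of all genes). In targeted spheroids 1 rose and 1 fell at 24 h (25.5% and 25.7%), and 3 rose and 2 fell at 48 h (25.8% and 23.6%). Between 24 h and 48 h SPANXB1 alone rose in each genotype and no member fell, where 6.32% of all genes rose and 6.88% fell in control and 2.07% and 1.73% in targeted spheroids. For copies read as a sum, XAGE1A with XAGE1B also rose between these times in targeted spheroids (0.23, SE 0.0577, adjusted p = 0.023), and SPANXA1, SPANXA2, SPANXC and SPANXD together rose at 48 h against droplets in control spheroids (0.45, SE 0.161, adjusted p = 0.0209). Against droplets the shares of members called were near or below those of all genes. Between 24 h and 48 h in targeted spheroids 1 of 14 members rose, a share above the 2.07% of all genes that rests on SPANXB1 alone. Members with few reads could change without a call. The median log2 change of the members was -0.01 and -0.03 in control and -0.16 and -0.09 in targeted spheroids at 24 h and 48 h against droplets, and that of all genes lay between -0.00 and 0.02.

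SPANXB1 was the member that rose with collagen throughout. In control spheroids it changed by 0.28 (SE 0.0713, adjusted p = 0.00203) at 24 h and 0.57 (SE 0.0711, adjusted p = 5.69e-07) at 48 h on the log2 scale. In targeted spheroids the changes were 0.53 (SE 0.0673, adjusted p = 1.14e-06) and 0.85 (SE 0.0672, adjusted p = 1.29e-09). Each later time lay above the earlier one without overlap in both genotypes. The rise from 24 h to 48 h in control spheroids (0.29, adjusted p = 0.00771) was lost without the second control 48 h library (adjusted p = 0.0633). The larger change in targeted spheroids did not pass as a difference, at 0.25 (adjusted p = 0.123) for 24 h and 0.28 (95% interval 0.08 to 0.48, adjusted p = 0.0803) for 48 h.

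XAGE1B rose in control spheroids by 0.27 (SE 0.0857, adjusted p = 0.0110) at 24 h and 0.34 (SE 0.0858, adjusted p = 0.00215) at 48 h. In targeted spheroids it was at -0.05 (adjusted p = 0.658) at 24 h and rose by 0.25 (SE 0.0858, adjusted p = 0.0222) at 48 h, a call that failed without the first or the third targeted droplet library or the first or the third targeted 48 h library (adjusted p of 0.0681 to 0.123). MAGEC1 rose by 0.32 (SE 0.0870, adjusted p = 0.00310) in control and 0.21 (SE 0.0793, adjusted p = 0.0313) in targeted spheroids at 48 h, and the latter failed without the first or the third targeted droplet library, the third targeted 24 h library, or the second or the third targeted 48 h library (adjusted p of up to 0.158). MAGEC2 fell by 0.38 (SE 0.160, adjusted p = 0.0483) in control spheroids at 24 h, and this failed when any 1 of 13 libraries was left out (adjusted p of 0.0503 to 0.219), that is, all but the second control droplet, second control 24 h, the third targeted 24 h, and the first and the third control 48 h libraries. DESeq2 (adjusted p = 0.0615) and the fit without the filter on low counts (adjusted p = 0.0789) also lost it, as they lost the MAGEC1 rise in targeted spheroids (adjusted p = 0.0628 and 0.133). The MAGEC2 fall by 0.35 (SE 0.132, adjusted p = 0.0301) in targeted spheroids at 48 h failed without the first or second targeted droplet library or the first or the third targeted 48 h library (adjusted p of 0.0535 to 0.0834).

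PAGE5 and MAGEA6 were each called in collagen against droplets in 1 genotype only, which is not a test of a difference between genotypes. PAGE5 fell in targeted spheroids by 0.48 (SE 0.0755, adjusted p = 1.55e-05) at 24 h and 0.33 (SE 0.0753, adjusted p = 0.00107) at 48 h. Its control values were -0.04 (adjusted p = 0.764) and -0.15 (adjusted p = 0.257). MAGEA6 rose in control spheroids by 0.60 (SE 0.156, adjusted p = 0.00235) and 0.83 (SE 0.154, adjusted p = 8.35e-05), on counts of 29 to 72 reads a library, while its targeted values were -0.20 (adjusted p = 0.0788) and -0.16 (adjusted p = 0.153). With MAGEA3 counts added the rises in control spheroids were smaller, at 0.36 (SE 0.132, adjusted p = 0.0297) and 0.50 (SE 0.132, adjusted p = 0.00314).

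The difference between these responses, the interaction of genotype with collagen, was tested directly. At 24 h it was higher for none of the members and lower for 2 (3.32% and 4.09% of all genes), and at 48 h higher for none and lower for 1 (4% and 2.78%). MAGEA6 gave -0.80 (SE 0.182, adjusted p = 0.0127) at 24 h and -0.998 (SE 0.181, adjusted p = 0.00569) at 48 h, and the 24 h value failed without the third control 24 h library (-0.68, adjusted p = 0.0660). With MAGEA3 counts added the values were -0.55 (SE 0.155, adjusted p = 0.0350) and -0.69 (SE 0.156, adjusted p = 0.0148). MAGEA3 alone gave 0.09 (95% interval -0.61 to 0.78) and 0.20 (-0.53 to 0.93), neither of which passed. PAGE5 gave -0.44 (SE 0.128, adjusted p = 0.0385) at 24 h, and -0.18 (adjusted p = 0.428) at 48 h. The 24 h value failed when any 1 of 11 libraries was left out (adjusted p of 0.0508 to 0.0972), namely the first and second control droplet and control 48 h libraries, the first and the third targeted droplet and targeted 24 h libraries, and all 3 control 24 h libraries. It also failed with scaling by library size alone (adjusted p = 0.0577) and without the filter on low counts (adjusted p = 0.0681). The summed XAGE1A and XAGE1B counts gave -0.34 (SE 0.0813, adjusted p = 0.0168) at 24 h.

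**Figure D4:**
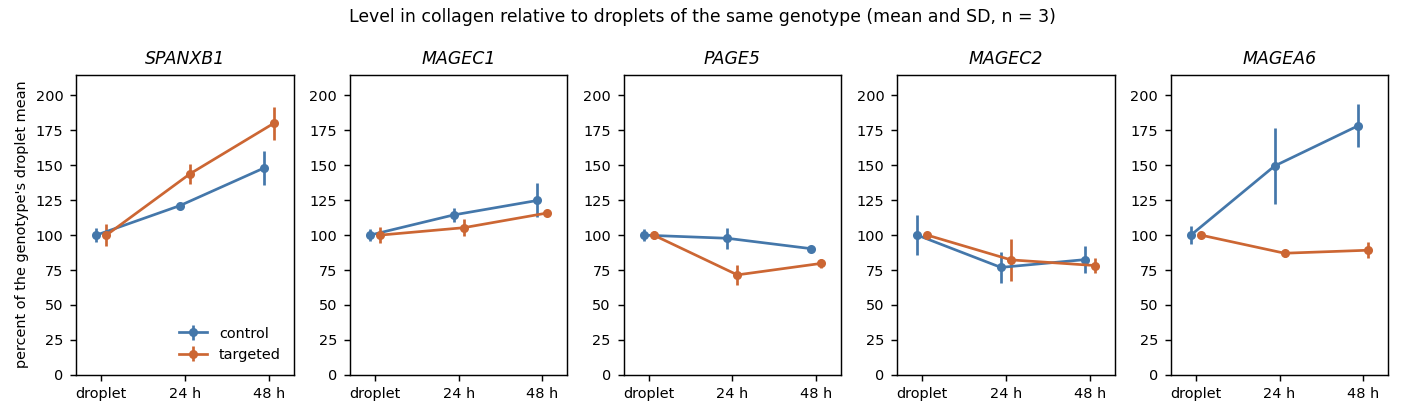
Level of 5 members in collagen as a percentage of the droplet mean of the same genotype (vertical axis, starting at 0) in droplets, at 24 h and at 48 h (horizontal axis); points are means of 3 libraries, bars are SD, blue control and orange targeted. SPANXB1 rises in both genotypes, PAGE5 falls in targeted spheroids, and MAGEA6 rises in control spheroids, from a control level below 2.6 CPM throughout.

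The rows below the threshold are given by their reads. Of these rows MAGEB2 and MAGEA2B passed the count filter and were in the fit, but no group mean of theirs reached 0.5 CPM, so no p is given. The 32 rows with some reads each held fewer than 100 reads over all 18 libraries, 136 in control and 497 in targeted libraries together. Targeted libraries had the higher count in 27 rows, control libraries in 2 (CTAG1B and PAGE4), and 3 were equal, but 17 of the 32 rows held at most 10 reads in all. Only 5 of these rows had reads in all 9 targeted libraries. They were the MAGE-B genes MAGEB2 (2 control and 70 targeted reads) and MAGEB1 (2 and 43), CTAG2 of the NY-ESO-1 family (12 and 68), and the copies CT45A10 (0 and 59) and CT45A5 (1 and 54). The 13 GAGE rows held 2 reads in all, and the 9 CT45 rows held 1 control and 113 targeted reads. The GAGE and CT45 rows are largely near-identical copies, with 10 and 9 of them in 1 set each at 95% coding identity. Their shared windows were not counted, so the share of reads that could be placed on 1 copy was not measured. A row with no read in the 453684963 reads of all libraries together allows a level of up to 0.00661 CPM (3 reads), for counting error only.

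All 83 of the rows found in GENCODE 29 lie on the X chromosome. Among the 540 other X-linked genes tested, the average over conditions was higher in targeted spheroids for 33.1% and lower for 19.4%, with a median log2 difference of 0.06. On all other chromosomes 20.8% were higher and 23.9% lower, with a median of -0.00. Within 500 kb of the 14 members, 36 distinct other genes were tested, with 12 higher and 6 lower on that average and a median of 0.04. MAGEC1 and MAGEC2 had no tested neighbour in that distance, and of the 11 around SSX1 none was higher and 4 were lower.

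Around MAGEA12, 2 genes outside the families also stood higher in targeted spheroids. CSAG1, a chondrosarcoma-associated antigen gene that lies 44 bases from MAGEA12, read 0 to 0.234 CPM in control libraries and 0.446 to 1 CPM in targeted ones. It was the 1 gene tested of the 4 in the CSAG family. GABRA3, a GABA-A receptor subunit gene 282421 bases away, had group means of 0.505, 0.454 and 0.674 CPM in control spheroids. In targeted spheroids they were 4.60, 6.33 and 5.61 CPM, or 3.36 higher on the log2 scale averaged over conditions. GABRA3 was named after its values were seen and its control 24 h mean was below 0.5 CPM, so no p is given. On the other side, CETN2 (0.07, adjusted p = 0.184) and NSDHL (-0.06, adjusted p = 0.262) did not pass and ZNF185 was lower by a small amount (-0.18, adjusted p = 2.51e-04).

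**Figure D5:**
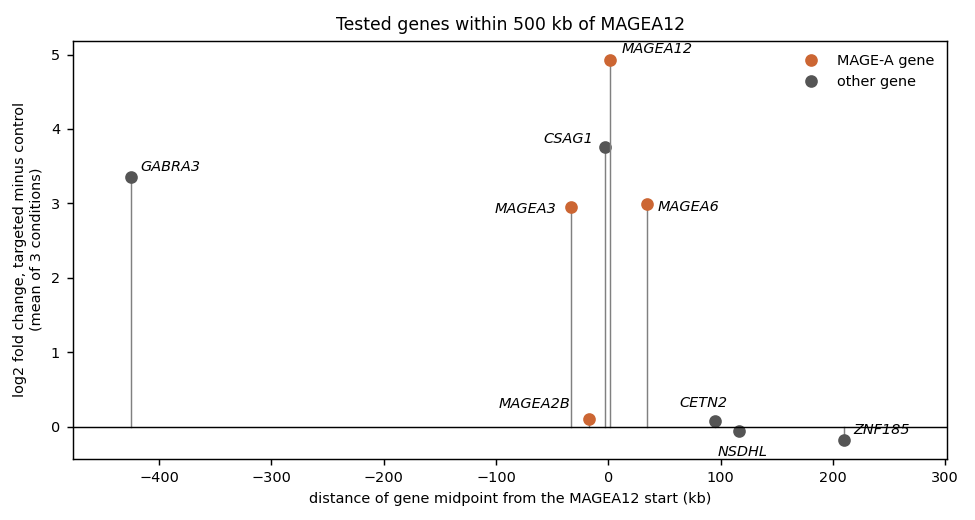
Log2 fold change of targeted against control averaged over 3 conditions (vertical axis) for each tested gene within 500 kb of MAGEA12, by the distance of its midpoint from the MAGEA12 start in kb (horizontal axis); orange marks MAGE-A genes and grey other genes. GABRA3, CSAG1, MAGEA3, MAGEA6 and MAGEA12 stand above 2.9, and MAGEA2B, CETN2, NSDHL and ZNF185 lie between -0.18 and 0.10; MAGEA12 and CSAG1 were below 0.5 CPM in every control group and MAGEA2B in every group.

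Genes known for silencing these families or for binding their proteins were read from lists, on the average over conditions. Of 17 tested genes of DNA methylation, 6 had a higher level in targeted spheroids and 9 a lower one, with a median log2 difference of -0.11, where 21.1% of all genes were higher and 23.1% lower. DNMT3A, a de novo methyltransferase, was higher by 0.58 (SE 0.0513, adjusted p = 7.90e-09) and TET1, which oxidises methylcytosine, by 0.45 (SE 0.0895, adjusted p = 3.07e-04). HELLS and UHRF1, which help maintain methylation, were lower at -0.54 (SE 0.0556, adjusted p = 1.56e-07) and -0.47 (SE 0.0574, adjusted p = 3.44e-06). Of 24 chromatin repressors of germ-line genes, 4 were higher and 9 lower, with a median of -0.04, against the same shares of all genes. Among them the histone methyltransferases SUV39H1 (-0.44) and SUV39H2 (-0.30) were lower, and the demethylase KDM5B (0.31) and the SETDB1 cofactor ATF7IP (0.25) were higher.

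TRIM28, the ligase bound by MAGEA3, MAGEA6 and MAGEC2, was lower by a small amount at -0.12 (SE 0.0353, adjusted p = 0.00959). Of 8 tested broadly expressed MAGE genes, 2 were higher, MAGEH1 (0.53) and MAGED2 (0.21), and MAGEF1 (-0.13) was lower. Over all genes 21.1% were higher and 23.1% lower, which also holds beside the list counts that follow. Of 29 other X-linked cancer-testis genes 4 were tested, and FAM133A fell by 0.75 (SE 0.0528, adjusted p = 1.90e-10), from group means of 23.9 to 30.0 CPM in control to 14.6 to 17.6 CPM in targeted spheroids. SAGE1 had no read in any control library and reached 0.461 CPM in the targeted 48 h group. Of 40 autosomal cancer-testis and germ-line genes 9 were tested, with 2 higher and 2 lower, and SPA17, the largest change of these at 1 CPM or more, was at -0.23 (adjusted p = 2.92e-04).

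Marker lists of other cell types also held genes that differed with genotype. On the average over conditions 21.1% of all genes were higher and 23.1% lower. Each list had few tested genes, so no comparison with these shares was made. Of 3 tested endothelial genes 2 were higher, and the summed level of the 7 listed ones was 17.9 to 37.7 CPM in control and 37.8 to 52.1 CPM in targeted libraries, while CDH5, ERG, TEK and VWF were below 0.5 CPM in every group. Of 5 tested leukocyte genes 3 were higher and none lower, with summed ranges of 108.7 to 155.3 and 104.3 to 154.6 CPM, and CD3E had no read. Of 6 tested fibroblast genes 2 were higher and 2 lower, with summed ranges of 37.4 to 59.4 and 34.0 to 59.7 CPM. Of 4 tested spermatogonial and Sertoli genes 3 were higher and none lower, with summed ranges of 115.7 to 166.0 and 113.8 to 187.9 CPM. The part of other cells in the member levels was not tested.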

How the data were processed

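RNA from 18 libraries was read from 1 table of expected counts per gene, deposited by the authors and made, per the submitters' processing notes, with cutadapt 2.3, FastQC 0.11.8, MultiQC 1.7, STAR 2.7.8a and RSEM 1.3.3 on GRCh38, with DESeq2 1.42.0 also listed. All values in it were whole. For the annotation release, the strand setting and the sharing of reads among copies, the entry is: not given in the sources used here. Of 62714 rows, 4 had no Ensembl ID and held 0 reads, and they were left out. Library totals ran from 19819401 to 33352163.

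Counts were tested with edgeR 4.0.16 (quasi-likelihood, TMM, R 4.3.3, limma 3.58.1) on 17030 genes kept by filterByExpr with a minimum count of 10. All 6 groups were in 1 fit with 12 residual degrees of freedom, and p-values were Benjamini-Hochberg adjusted over all genes within each of 12 contrasts, with a threshold of 0.05. SE is the log2 fold change divided by the square root of F. The code was tested on simulated data. Members are rows whose names match the families with a group mean of 0.5 CPM or more. The members and all 13 gene lists were chosen with earlier results of these data known. Values in every group or library are given for members with a mean of 2 CPM or more over the 18 libraries and for further members with large differences. A p is printed for a member only where the groups compared have means of 0.5 CPM or more. From each list at most 4 changed genes at 1 CPM or more are named, and some others were named after their values were seen: SAGE1, GABRA3, the genes beside MAGEA12, and the rows below the threshold. The counts for the list of MAGE protein partners are not reported here. Copies were grouped by coding-sequence identity of 95% or more and shared 151-base windows in GENCODE 29 transcripts on GRCh38, in place of the protein identity first planned. Promoters are from RefSeq, matched by symbol for 14 of 14 members. Gene coordinates are from GENCODE 29, which holds 83 of the 84 rows. Alternatives were other scaling (DESeq2's size factors in edgeR, library size alone), no filter, a prior count of 2, DESeq2 1.42.0, a replicate block, summed copies, other thresholds, and leaving out each library.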

Additional observations from a re-analysis of the deposited data

Results flagged for a closer look

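In 3 cases the change in collagen differed between control and targeted spheroids by a test of the difference itself, edgeR's interaction term with Benjamini-Hochberg adjustment. MAGEA6 had a difference of -0.80 (SE 0.182, adjusted p = 0.0127) at 24 h and of -0.998 (SE 0.181, adjusted p = 0.00569) at 48 h on the log2 scale, with control libraries at 1.21 to 2.5 CPM and targeted libraries at 13.1 to 16.1 CPM. PAGE5 had a difference of -0.44 (SE 0.128, adjusted p = 0.0385) at 24 h, where all 3 targeted 24 h libraries lay below all 3 targeted droplet libraries and the control groups overlapped. The PAGE5 call failed when any 1 of 11 libraries was left out, with scaling by library size alone (adjusted p = 0.0577) and without the filter on low counts (adjusted p = 0.0681). The MAGEA6 call at 24 h failed without the third control 24 h library (adjusted p = 0.0660). No explanation was tested.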

How the results depend on the processing

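The numbers of members called in the genotype comparisons stayed within 10 to 14 of 14 under every alternative run, against 11, 12, 10 and 13 in droplets, at 24 h, at 48 h and averaged. Other counts moved more. With scaling by library size alone, the 24 h and 48 h interactions had 1 and 2 members called, against 2 and 1. Without a filter on low counts they had 4 and 2, and the change from 24 h to 48 h in targeted spheroids had 2 against 1, as it also did with the DESeq2 Wald test. Leaving out 1 library gave 0 to 1 members for 48 h against 24 h in control and 1 to 2 in targeted spheroids, 2 to 5 for 48 h against droplets in targeted spheroids, and 0 to 3 for the 24 h interaction. The 24 h interaction had none without the third control 24 h library. The log2 difference of XAGE1A in droplets ran from -0.0571 to 0.13 and that of XAGE1B from -0.0248 to 0.0655 over the libraries left out, so their sign is not fixed. Over single genes, 1686 of 1759 alternatives kept direction and side of the threshold, 65 lost the call, 4 gained it and 4 changed sign. The prior count of 2 only recomputed the log2 values, so under it no call could be lost or gained. The tally also holds comparisons of MAGEA12, SPANXD and SPANXA2 with control groups below 0.5 CPM, which had to differ. It is therefore no measure of how firm the calls are. The cause of the changed calls was not tested. A threshold of 0.25 CPM gave 19 members and 1 CPM gave 14.

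Scaling by library size alone raised the share of higher genes among all genes called from 44.3% to 50.7% in droplets, 46.5% to 61.9% at 24 h, 48.9% to 64.3% at 48 h and 47.8% to 61.1% on average, and left XAGE1B at -0.09 on average (adjusted p = 0.172). Same-numbered libraries correlated in their deviations by -0.0947 to 0.228 over 45 pairs, 6 of them over 0.1. The median was 0.0208 for these pairs and -0.0161 for pairs with different numbers. Whether the numbers pair samples is not given in the sources used here, and these correlations cannot decide it. With the number as a replicate block 11, 12, 10 and 12 members were called between genotypes, XAGE1B no longer passed on average (-0.13, adjusted p = 0.0636), and 3 against 2 were called at 24 h in targeted spheroids. Depth limits the members near 0.5 CPM, where 9.91 to 16.7 reads a library carry the value.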

Other observations

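Summed over all rows of a family, the mean level over control libraries and then over targeted libraries was 5.05 and 28.2 CPM for MAGE-A, 4.66 and 26.1 CPM for PAGE, 0.903 and 5.73 CPM for SSX, 43.0 and 92.1 CPM for SPANX, 13.8 and 27.6 CPM for MAGE-C, and 142.7 and 130.1 CPM for XAGE. The 14 members together held 178.5 to 238.0 CPM in control and 283.8 to 364.2 CPM in targeted libraries. Without XAGE1A and XAGE1B these were 55.9 to 79.3 and 159.5 to 210.7 CPM.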
